A study of Mus musculus with 8 samples.

Results

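The 9 genes described here encode the enzymes that build triglyceride in the liver and the protein that loads it onto secreted lipoprotein: Gpam, Agpat2, Lpin1, Lpin2 and the acyltransferases Dgat1 and Dgat2 of the glycerol phosphate route, Mogat1 and Mogat2 of the monoacylglycerol route, and Mttp. They were chosen by name. All 21 probes on the array that carry one of these names were kept, each gene was represented by its brightest probe, and the other probes served as a check. The 9 genes stand among 17050 genes tested. All of their brightest probes were well above background on every one of the 8 arrays.

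Total liver RNA was measured on 8 one-colour Agilent arrays, with 2 arrays for each strain, C57BL/6J or KKAy, at each of 2 ages, 4 or 11 weeks. KKAy is an inbred line that carries the yellow agouti allele, becomes obese and is used as a model of type 2 diabetes. The labels give the disease state of both KKAy groups as diabetes and of both C57BL/6J groups, a standard inbred strain, as normal. All 4 groups were fed chow and fasted for 13.5 hours. Strain and genotype go together here, since no KK mice without the yellow allele are among the samples, and no source used here gives the sex of the mice.

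Triglyceride is built on glycerol phosphate by stepwise acylation. Gpam, a mitochondrial acyltransferase, adds the initial fatty acid, Agpat2 adds the next to give phosphatidic acid, the lipins Lpin1 and Lpin2 remove its phosphate to give diacylglycerol, and Dgat1 or Dgat2 adds the last fatty acid. The monoacylglycerol acyltransferases Mogat1 and Mogat2 make diacylglycerol without passing through phosphatidic acid, a route best known from the intestine, and Mttp transfers triglyceride to apolipoprotein B in the endoplasmic reticulum. Lipin 1 is also known as a nuclear coactivator of fatty acid oxidation genes, and its transcript is known to rise in fasted liver.

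Arrays differed in brightness, with a 75th percentile of signal from 476 to 1192 units, and on each of them 56.3% to 66.7% of spots exceeded background clearly. Values below are log2 signal relative to that percentile of the same array, so that 0 is the 75th percentile, and they show how a probe varies over arrays, not how much RNA of one gene there is beside another. Differences are of group means, with their SE from a limma fit over all 8 arrays and a p-value adjusted by Benjamini-Hochberg over all genes; a gene is called where that adjusted p is under 0.05. Nothing in the labels states that the 2 samples of a group are from different mice, so the p-values reflect the spread between these samples alone, and that spread may be technical. The 4-week arrays were on one slide and the 11-week arrays on the other, so age cannot be told apart from slide. C57BL/6J took positions 1 and 2 of each slide and KKAy took 3 and 4, so strain and position cannot be told apart either. Whole tissue was measured, in which fewer cells of a type and less RNA per cell cannot be told apart.

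Between the strains, Lpin1 was far lower in KKAy liver at both ages and Mogat1 was higher at both ages. At 11 weeks Gpam was also lower, by a smaller amount. The terminal acyltransferases Dgat1 and Dgat2, the acyltransferase Agpat2 and the transfer protein Mttp were called in neither strain comparison. At 4 weeks, 1 of the 9 genes was called higher and 1 lower, where 15.4% of all genes were called (6.41% higher and 9% lower). At 11 weeks 1 was higher and 2 were lower, where 21.5% of all genes were called (9.95% higher and 11.5% lower). The shares of 22.2% and 33.3% of 9 genes say nothing particular about the group as a whole, and its median difference was 0.10 at 4 weeks and -0.28 at 11 weeks, beside 0.015 and -0.001 over all genes. The differences of Lpin1 and Mogat1, opposite in sign, were the largest of the 9 at both ages.

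**Figure D1:**
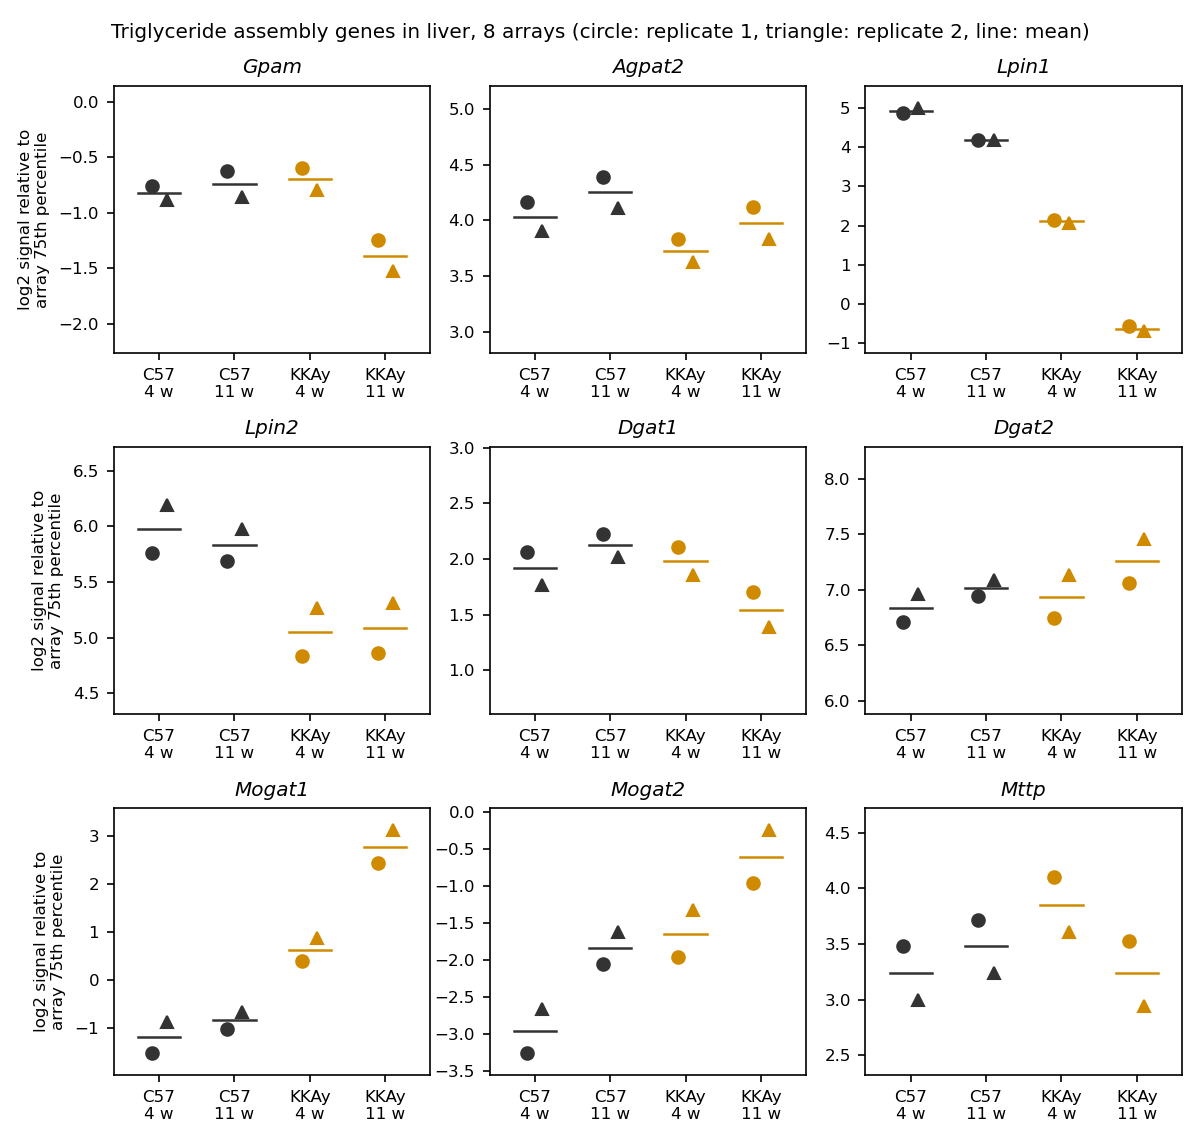
Log2 signal relative to each array's 75th percentile (vertical axis, its range set for each gene) of the 9 genes on the 8 arrays, by strain and age; a circle is replicate 1, a triangle replicate 2 and a line their mean. Lpin1 steps down over the 4 groups from 4.93 to -0.63 with the arrays of a group close together, while Mogat1 lies between 2.43 and 3.11 in KKAy at 11 weeks and below 0 on the 4 C57BL/6J arrays.

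Lpin1, which encodes lipin 1, the phosphatidate phosphatase, had the widest range of the 9 genes. Its signal was 4.87 and 4.99 in C57BL/6J at 4 weeks, 4.18 and 4.19 in C57BL/6J at 11 weeks, 2.15 and 2.08 in KKAy at 4 weeks, and -0.57 and -0.68 in KKAy at 11 weeks. No 2 groups overlapped, and every KKAy array was below every C57BL/6J array. KKAy was lower by a log2 difference of -2.82 at 4 weeks (SE 0.10, adjusted p = 0.000114), which is 7.05-fold, and of -4.81 at 11 weeks (SE 0.10, adjusted p = 2.11e-05), which is 28.05-fold. Ranked by p-value over all genes, the 11-week difference was number 6 and the 4-week difference number 28.

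Lpin1 also fell with age in both strains, and more in KKAy. From 4 to 11 weeks it fell by 2.74 on the log2 scale in KKAy (SE 0.10, adjusted p = 0.000133) and by 0.75 in C57BL/6J (SE 0.10, adjusted p = 0.0105). The difference between those age changes, the interaction of strain and age, was -1.99 (SE 0.15, adjusted p = 0.00375), in a comparison where 3.81% of all genes were called (2.06% above 0 and 1.75% below). The age change in C57BL/6J was not called when either array of either C57BL/6J group was left out (adjusted p 0.0527 to 0.0968), while the strain differences, the age change in KKAy and the interaction were called in each of the 8 fits that left out an array.

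Lpin1 has 4 probes, which lie within chromosome 12 at 16561989 to 16562942 on the minus strand (mm8, the build of the file annotation). All 4 gave the same directions in both strain comparisons, both age comparisons and the interaction. The other 3 probes gave larger strain differences than the brightest one, from -3.36 to -4.07 at 4 weeks and from -5.37 to -6.18 at 11 weeks. The brightest probe thus gave the smallest of the 4 strain estimates, and the fold difference between the strains depends on the probe. For age in KKAy the 4 probes lay closer together, from -2.74 to -2.90. The probes that start at 16562863 and 16562883 overlap, so the 4 are not independent readings. The cause of the differences between probes was not tested.

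Lpin2, the lipin best known from liver, cannot be given 1 direction, because its 4 probes disagree. On the brightest probe, at 71154515 to 71154574 of chromosome 17 (mm8), signal was 5.76 and 6.19 in C57BL/6J at 4 weeks, 5.69 and 5.98 at 11 weeks, 4.84 and 5.27 in KKAy at 4 weeks, and 4.86 and 5.31 at 11 weeks. The 4 KKAy arrays lay below the 4 C57BL/6J arrays, and neither difference was called: -0.92 at 4 weeks (SE 0.25, adjusted p = 0.0634) and -0.75 at 11 weeks (SE 0.25, adjusted p = 0.0914). The dimmest probe, at 71120079 to 71120138, went the other way, with 0.64 (adjusted p = 0.029 over all probes) and 0.74 (adjusted p = 0.0143). Of the remaining pair, one gave 0.14 at 4 weeks (adjusted p = 0.581 over all probes) and -1.26 at 11 weeks (adjusted p = 0.00158), and the other gave -1.60 (adjusted p = 0.00758) and -1.57 (adjusted p = 0.0067). At 11 weeks 3 of the 4 probes were thus below 0 and 2 of those were called. The array annotation names a RefSeq transcript for the probe with 0.14 and -1.26, and a different sequence record for each of the others. Which further transcripts of Lpin2 each probe reads was not tested.

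**Figure D2:**
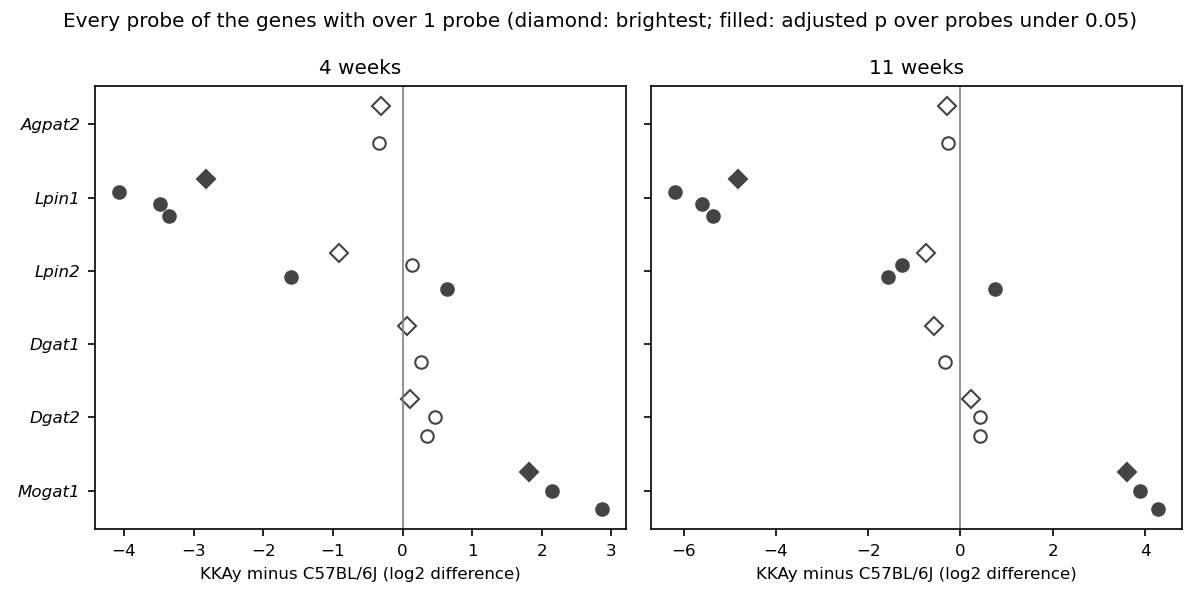
Log2 difference of KKAy minus C57BL/6J (horizontal axis) at 4 weeks and at 11 weeks for every probe of the 6 genes that have over 1 probe; a diamond is the brightest probe, and filled symbols passed an adjusted p of 0.05 over all probes. The 4 probes of Lpin1 and the 3 of Mogat1 each lie on one side of 0 at both ages, and those of Lpin2 lie on both sides.

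At the entry of the route, Gpam was lower in KKAy at 11 weeks by a small difference whose call depended on single arrays. Its single probe read -0.76 and -0.89 in C57BL/6J at 4 weeks, -0.62 and -0.85 in C57BL/6J at 11 weeks, -0.60 and -0.80 in KKAy at 4 weeks, and -1.25 and -1.52 in KKAy at 11 weeks. The KKAy arrays at 11 weeks lay below the other 6, which overlapped one another. The strain difference was 0.13 at 4 weeks (SE 0.15, adjusted p = 0.702) and -0.64 at 11 weeks (SE 0.15, adjusted p = 0.0323), and KKAy fell by 0.69 between the ages (SE 0.15, adjusted p = 0.0303). The interaction was not called (-0.77, SE 0.22, adjusted p = 0.13), so a change of the strain difference with age was not shown. The call at 11 weeks was lost in 7 of the 8 fits that left out an array (adjusted p 0.0511 to 0.189), all but the one without KKAy replicate 1 at 11 weeks, and so was the age call in KKAy (adjusted p 0.0568 to 0.143 in those 7).

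Agpat2, a lysophosphatidate acyltransferase of liver and fat, differed little between the groups. It read 4.17 and 3.90 in C57BL/6J at 4 weeks, 4.39 and 4.11 in C57BL/6J at 11 weeks, 3.83 and 3.62 in KKAy at 4 weeks, and 4.12 and 3.83 in KKAy at 11 weeks. The strain differences of -0.31 (95% interval -0.74 to 0.12) and -0.28 (-0.71 to 0.16) were not called, and its other probe gave -0.34 and -0.26.

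Neither enzyme of the last step was called in any of the 5 comparisons. Dgat1, an endoplasmic reticulum acyltransferase of the sterol acyltransferase family, read 2.07 and 1.76 in C57BL/6J at 4 weeks, 2.22 and 2.02 in C57BL/6J at 11 weeks, 2.11 and 1.85 in KKAy at 4 weeks, and 1.70 and 1.39 in KKAy at 11 weeks. The KKAy arrays at 11 weeks were the lowest, with a strain difference of -0.58 (95% interval -1.02 to -0.13, adjusted p = 0.0768), and the other groups overlapped. Its other probe gave -0.34 at that age.

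Dgat2, which is unrelated in sequence to Dgat1 and belongs to the same family as Mogat1 and Mogat2, lay within a narrow band. Its readings were 6.71 and 6.96 in C57BL/6J at 4 weeks, 6.95 and 7.09 in C57BL/6J at 11 weeks, 6.74 and 7.13 in KKAy at 4 weeks, and 7.06 and 7.46 in KKAy at 11 weeks. The groups overlapped, and the strain differences were 0.10 (95% interval -0.39 to 0.60) and 0.24 (-0.26 to 0.74). The other 2 probes gave 0.35 and 0.47 at 4 weeks and 0.43 each at 11 weeks, none of them called. These intervals bound a change of Dgat2 and do not show that it is absent.

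In the monoacylglycerol route, Mogat1 differed between the strains in the opposite direction from Lpin1. Mogat1, which is best known in mouse liver for its rise in steatosis, read -1.51 and -0.88 in C57BL/6J at 4 weeks, -1.01 and -0.67 in C57BL/6J at 11 weeks, 0.39 and 0.86 in KKAy at 4 weeks, and 2.43 and 3.11 in KKAy at 11 weeks. Every KKAy array was above every C57BL/6J array, the KKAy groups did not overlap each other, and the C57BL/6J groups did. KKAy was higher by a log2 difference of 1.82 at 4 weeks (SE 0.33, adjusted p = 0.0167), which is 3.54-fold, and of 3.61 at 11 weeks (SE 0.33, adjusted p = 0.00121), which is 12.2-fold. The 4-week call was lost without C57BL/6J replicate 1 of that age (1.5, adjusted p = 0.0872) and without KKAy replicate 2 (1.59, adjusted p = 0.091), and the 11-week call was kept in all 8 such fits (adjusted p at most 0.0144).

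With age, Mogat1 rose in KKAy by 2.14 (SE 0.33, adjusted p = 0.00965), a call lost without KKAy replicate 1 at 4 weeks (1.91, adjusted p = 0.0554). In C57BL/6J it differed by 0.35 (SE 0.33, adjusted p = 0.666). The interaction was 1.79 on the brightest probe and was not called (SE 0.47, adjusted p = 0.114). On the other 2 probes it was 1.75 (adjusted p = 0.0191 over all probes) and 1.41 (adjusted p = 0.0133). All 3 probes, which lie within 78412333 to 78421277 of chromosome 1 on the plus strand (mm8), were higher in KKAy at both ages, by 1.82, 2.14 and 2.86 at 4 weeks and by 3.61, 3.89 and 4.28 at 11 weeks.

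Mogat2, the intestinal form of the enzyme, was measured by 1 probe and was not called in any comparison. It read -3.25 and -2.67 in C57BL/6J at 4 weeks, -2.06 and -1.63 in C57BL/6J at 11 weeks, -1.96 and -1.33 in KKAy at 4 weeks, and -0.96 and -0.25 in KKAy at 11 weeks. Within each age the KKAy arrays were above the C57BL/6J arrays, and C57BL/6J at 11 weeks overlapped KKAy at 4 weeks. The strain differences were 1.32 at 4 weeks (95% interval 0.43 to 2.20, adjusted p = 0.0641) and 1.24 at 11 weeks (0.35 to 2.12, adjusted p = 0.0605). The age differences were 1.12 in C57BL/6J (adjusted p = 0.143) and 1.04 in KKAy (adjusted p = 0.103). With arrays scaled to the spike-in controls, or to the 75th percentile of probes detected on all arrays, both strain differences were called (1.19 to 1.63). Mogat2 and Dgat2 are neighbours on chromosome 7, with their nearest probes 64.5 kb apart (mm8), and their differences at 4 weeks were 1.32 and 0.10.

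Mttp, the gene of the transfer protein that lipidates apolipoprotein B, read 3.48 and 2.99 in C57BL/6J at 4 weeks, 3.72 and 3.24 in C57BL/6J at 11 weeks, 4.10 and 3.61 in KKAy at 4 weeks, and 3.53 and 2.94 in KKAy at 11 weeks. At 4 weeks the KKAy arrays were above the C57BL/6J arrays, and at 11 weeks the strains overlapped. The strain differences of 0.61 (95% interval -0.15 to 1.38, adjusted p = 0.286) and -0.24 (-1.01 to 0.52, adjusted p = 0.65) were not called. The 2 arrays of each group differed by 0.48 to 0.58, with replicate 1 above replicate 2 in all 4 groups.

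**Figure D3:**
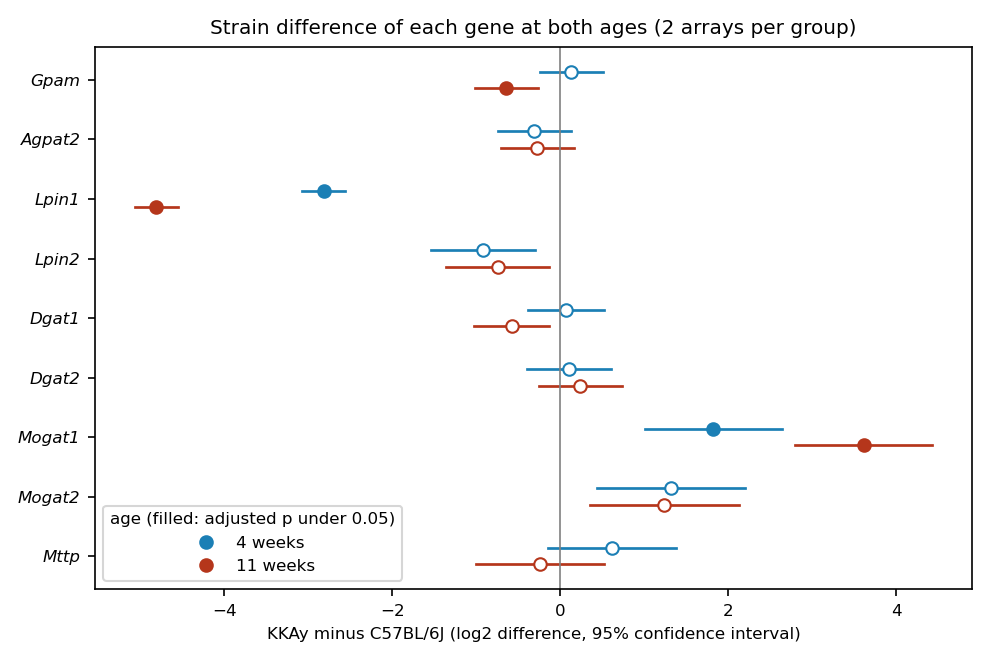
Log2 difference of KKAy minus C57BL/6J (horizontal axis) with its 95% interval from the limma fit, for each gene at 4 weeks and at 11 weeks; filled points were called at an adjusted p under 0.05. Lpin1 (-2.82 and -4.81) and Mogat1 (1.82 and 3.61) lie outside the span of the other 7 genes at both ages.

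Between the ages, 1 of the 9 genes was called in C57BL/6J, Lpin1, where 8.38% of all genes were called (1.89% higher and 6.48% lower). In KKAy 3 were called, Mogat1 higher and Lpin1 and Gpam lower, where 18.6% of all genes were called (7.89% higher and 10.7% lower). The median age difference of the 9 genes was 0.21 in C57BL/6J and 0.03 in KKAy, beside 0.053 and 0.023 over all genes. The comparisons by age share their arrays with the comparisons by strain, so they are not independent views of the same genes.

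Sequence upstream of the start was held by the RefSeq promoter table (GRCm38.p6) for 6 of the 9 genes, in 9 windows. The 250 bases before the start are shown for the 3 genes called between the strains, to set side by side the upstream sequence of a gene that was higher in KKAy and of 2 that were lower. Capitals mark the letters CACCCCA, a core of the sterol response element, on either strand (TGGGGTG is its reverse complement). The windows are Lpin1 at chr12:16610967-16611216 on the minus strand, Mogat1 at chr1:78510810-78511059 on the plus strand and Gpam at chr19:55127239-55127488 on the minus strand.
Lpin1: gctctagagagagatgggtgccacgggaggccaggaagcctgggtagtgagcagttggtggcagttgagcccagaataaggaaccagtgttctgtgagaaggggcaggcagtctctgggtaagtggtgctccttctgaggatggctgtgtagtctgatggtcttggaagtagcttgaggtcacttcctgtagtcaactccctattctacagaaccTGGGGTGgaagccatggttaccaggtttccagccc
Mogat1: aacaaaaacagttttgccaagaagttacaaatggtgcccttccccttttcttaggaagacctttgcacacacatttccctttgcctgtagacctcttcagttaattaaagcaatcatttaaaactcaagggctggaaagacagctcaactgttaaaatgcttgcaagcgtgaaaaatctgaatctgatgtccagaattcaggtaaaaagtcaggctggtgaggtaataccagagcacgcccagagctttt
Gpam: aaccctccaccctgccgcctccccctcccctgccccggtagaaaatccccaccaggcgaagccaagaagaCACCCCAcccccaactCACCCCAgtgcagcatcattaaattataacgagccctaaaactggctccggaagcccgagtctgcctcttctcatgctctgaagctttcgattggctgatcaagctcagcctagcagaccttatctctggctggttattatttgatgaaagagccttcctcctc
The start used for Lpin1 is an internal one, 42.9 kb inside the gene's annotated 5′ end, and those of Mogat1 and Gpam lie at or within 0.1 kb of it. The window shown for Gpam held CACCCCA at 2 places, beginning 180 and 164 bases before the start. Another window of Gpam, 27.8 kb inside the annotated 5′ end, is not shown and did not hold it. Lpin1 held the reverse complement of CACCCCA 35 bases before the start. Of all 32851 windows of this length, 6.68% hold it on either strand. The E-box CACGTG, which 6.02% of windows hold, was found among the 9 windows in 1 of Lpin2, 9 bases before its start. Direct repeats of AGGTCA spaced by 1 or by 4 bases were in none of the 9 windows and in 0.0335% and 0.0152% of all windows. The motifs were searched as exact letters on both strands, and a match or its absence is a description of these windows only.

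For the 3 genes with the widest range, the named genes with the most similar pattern over the 8 arrays were found as the smallest root mean square difference of the values after taking each gene's own mean away. For Lpin1 they were Fam107a (0.385, log2 scale), Bcl9 (0.636) and Usp18 (0.698), where the median gene was 2.18 away. Fam107a was not well above background on either KKAy array at 11 weeks and Bcl9 on none of the 4 KKAy arrays, so their distances rest in part on values near background. For Mogat1 they were Ak7 (0.282), Cyp46a1 (0.301), a brain cholesterol hydroxylase gene, and Xlr5c (0.386), where the median was 1.59. Xlr5c was well above background only on the 2 KKAy arrays at 11 weeks and Ak7 on 7 of the 8 arrays, so the same holds for them. For Mogat2 they were Bmp7 (0.136), a growth factor gene, Tchh (0.161) and Plin4 (0.19), which encodes a lipid droplet protein, where the median was 0.899. Likeness over 8 arrays in 4 groups describes these arrays and nothing more.

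A list of 19 further acylation and phosphatidate genes was tested. It also holds genes best known for other steps, namely sterol and wax ester synthesis (Soat1, Soat2, Awat2) and glycerol phosphate supply (Gpd1, Gpd1l, Gk). Of the 19, 1 was higher at 4 weeks, and 2 were higher and 1 lower at 11 weeks. The median difference was 0.203 and -0.027. The called share was 5.26% and 15.8%, beside 15.4% and 21.5% of all genes. Both genes called higher at 11 weeks, Awat2 and Soat2 (0.34, adjusted p = 0.0468), are best known for those other steps. Lpin3, the remaining lipin, was lower in KKAy at 11 weeks by a log2 difference of -1.01 (SE 0.10, adjusted p = 0.00173) and by -0.09 at 4 weeks, where it was not called. Gpat3, an acyltransferase for the same step as Gpam in the endoplasmic reticulum, was higher at 4 weeks by 1.14 (SE 0.23, adjusted p = 0.0248). At 11 weeks its difference was 0.84 (adjusted p = 0.0534), and the 4-week call was lost without any of the 4 C57BL/6J arrays or without KKAy replicate 2 at 4 weeks (adjusted p 0.0501 to 0.132). The other, dimmer probe of Gpat3 passed at both ages. It gave 1.13 at 4 weeks (adjusted p = 0.00142 over all probes) and 0.54 at 11 weeks (adjusted p = 0.0138). Awat2, a wax synthase gene of the Dgat2 family, was higher at 11 weeks by 0.88 (SE 0.13, adjusted p = 0.00716). That call was lost without C57BL/6J replicate 1 at 11 weeks (adjusted p = 0.0547).

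Among 15 genes of fatty acid uptake and activation, 2 were lower at 4 weeks, and 2 were higher and 2 lower at 11 weeks (medians -0.019 and -0.101). These are 13.3% and 26.7% of the list, near the 15.4% and 21.5% of all genes. Cd36, the fatty acid translocase, was higher in KKAy at 11 weeks by 1.78 (SE 0.09, adjusted p = 0.000204), and its 4-week difference of 0.09 was not called. The transporter Slc27a1 was lower at 11 weeks by -0.97 (SE 0.11, adjusted p = 0.00276), and its other, dimmer probe gave -2.05 (adjusted p = 0.000877 over all probes). The bile acid and fatty acid ligase Slc27a5 was lower at both ages, by -0.56 at 4 weeks (adjusted p = 0.0177) and -0.50 at 11 weeks (adjusted p = 0.0214). The acyl-CoA synthetase Acsl3 was lower at 4 weeks by -0.58 (adjusted p = 0.0453). Both 4-week calls were lost in the 6 fits that left out an array other than KKAy at 11 weeks (adjusted p 0.0547 to 0.216), and the 11-week call of Slc27a5 without either C57BL/6J array or KKAy replicate 2 of that age (adjusted p 0.098 to 0.137).

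Of 17 genes that act with Mttp in lipoprotein assembly and secretion, 2 were higher at 4 weeks, and 2 were higher and 1 lower at 11 weeks (medians 0.122 and 0.09). These are 11.8% and 17.6% of the list, near the 15.4% and 21.5% of all genes. Apob itself differed by 0.04 and -0.10 and P4hb, the subunit that pairs with Mttp, by 0.08 and 0.35, none of them called; both were singled out for their tie to Mttp after values were seen. Sar1b, a GTPase of the vesicles that carry lipoprotein out of the endoplasmic reticulum, was higher at 4 weeks by 0.48 (SE 0.12, adjusted p = 0.0435), a call lost in all 8 fits that left out an array (adjusted p 0.0563 to 0.214). Sec23a, a coat subunit of those vesicles, was lower at 11 weeks by -0.55 (SE 0.11, adjusted p = 0.0167), a call lost without either C57BL/6J array or KKAy replicate 2 of that age (adjusted p 0.0773 to 0.108). Tmem41b was higher on its brightest probe by 0.46 and 0.62, and its 2 other probes gave -0.06 and -0.50 at 4 weeks, so no direction is given for it.

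Of 19 droplet genes and genes tied to PPARγ in fatty liver, 3 were higher and 1 lower at 4 weeks, and 6 were higher and 4 lower at 11 weeks (medians 0.252 and 0.088). The called share was 21.1% and 52.6%, beside 15.4% and 21.5% of all genes. The largest difference of the list was that of Cidea, a droplet protein gene best known from brown fat and fatty liver and named after its values were seen: it was higher in KKAy at 11 weeks by 3.92 (SE 0.34, adjusted p = 0.00104) and not called at 4 weeks (0.67, adjusted p = 0.294). Cidec, a droplet fusion protein gene, was lower in KKAy at 11 weeks by -3.58 (SE 0.21, adjusted p = 0.000279), and Pnpla2, the adipose triglyceride lipase, by -1.42 (SE 0.09, adjusted p = 0.000368). Of the genes that hand triglyceride to droplets, Fitm2 was higher at 4 weeks by 0.71 (SE 0.09, adjusted p = 0.00471). Fitm1 was lower at 4 weeks by -0.80 (SE 0.12, adjusted p = 0.00795) and higher at 11 weeks by 1.11 (SE 0.12, adjusted p = 0.00202), and the 4-week call was lost without either C57BL/6J array or KKAy replicate 2 of that age (adjusted p 0.0512 to 0.0567). Pparg, named after its values were seen because Mogat1 is one of its known targets, was higher at 11 weeks by 1.27 (SE 0.14, adjusted p = 0.0025) and not called at 4 weeks (0.21, adjusted p = 0.458).

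A list of 23 transcription factors, coactivators and other regulators of these 9 genes was tested, with Insig1 and Insig2 among the other regulators. Of the 23, 3 were higher and 4 lower at 4 weeks, and 8 were higher and 2 lower at 11 weeks (medians 0.038 and 0.017). The called share was 30.4% and 43.5%, beside 15.4% and 21.5% of all genes. Usf1, which binds E-boxes of lipid genes, was higher in KKAy by 1.5 at 4 weeks (SE 0.14, adjusted p = 0.00189) and 1.79 at 11 weeks (SE 0.14, adjusted p = 0.000786). Srebf1, the sterol response element factor of fatty acid and triglyceride synthesis, was higher at 11 weeks by 1.24 (SE 0.11, adjusted p = 0.00094). Nr0b2, a corepressor, was lower at 4 weeks by -1.05 (SE 0.13, adjusted p = 0.00458) and higher at 11 weeks by 0.91, a call lost without C57BL/6J replicate 2 of that age (adjusted p = 0.0553). Ppargc1a, a coactivator that acts with lipin 1 and was named after its values were seen, was lower at 4 weeks by -1.57 (SE 0.31, adjusted p = 0.023), and its 11-week difference of -0.95 was not called (adjusted p = 0.0873). The 4-week call was lost without any 1 of the 4 arrays of that age (adjusted p 0.056 to 0.12). The other, dimmer probe of Ppargc1a gave the same differences and passed at both ages (adjusted p = 0.00336 and 0.0152 over all probes).

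**Figure D4:**
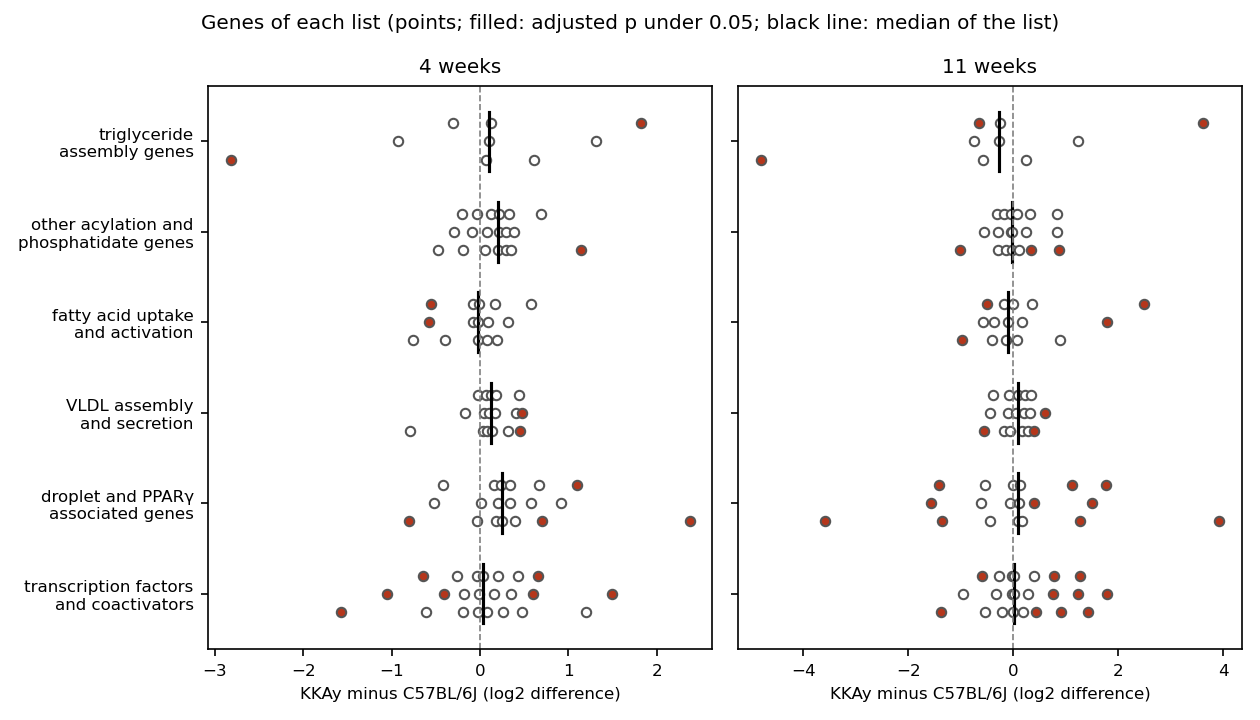
Log2 difference of KKAy minus C57BL/6J (horizontal axis) at 4 weeks and at 11 weeks for each gene (point) of the 9 triglyceride assembly genes and of 5 related lists; filled points were called at an adjusted p under 0.05, and a black line is the median of the list. Lpin1 at -4.81 is the lowest of all points at 11 weeks, and the medians of the 6 lists lie between -0.28 and 0.25 at both ages.

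The tissue label was checked against cell type markers. All 10 hepatocyte markers tested were well above background in every group. Between the strains none of them was called at 4 weeks. At 11 weeks 3 were higher and 3 lower in KKAy, which is 60% beside 21.5% of all genes. The adipocyte markers Lep, Retn and Adig and the enterocyte markers Lct, Cdx2 and Krt20 were above background on both arrays of no group, and the summed level of the 5 tested adipocyte markers, in units of the array's 75th percentile, was 5.20 to 7.65 in KKAy at 11 weeks, where Mogat1 was highest, and 7.32 to 13.8 in the other groups. That adipocyte sum rested mainly on Fabp4 and Lipe. The log2 values of Adipoq, Plin1 and Cfd were at most -3.42, -4.48 and 0.02 on any array, so these 3 made up a small part. Cfd and Adipoq did not follow the sum. Cfd was higher at 11 than at 4 weeks, by 5.39 in KKAy (adjusted p = 0.000114) and 5.09 in C57BL/6J (adjusted p = 0.000239). The age differences of Mogat1 were 2.14 in KKAy and 0.35 in C57BL/6J, and its interaction was not called. Adipoq was higher in KKAy at 4 weeks by 1.48 (adjusted p = 0.0212), as Mogat1 was, and differed by -1.04 at 11 weeks (adjusted p = 0.0531). The summed enterocyte markers were 65.0 to 78.7 in KKAy at 11 weeks and 83.6 to 179 in the other groups. Apoa4, an apolipoprotein gene that liver also expresses, made up 33.5% to 74.9% of that sum and Fabp2 25% to 65.9%, while Vil1, the villin gene, was not well above background on the 4 KKAy arrays. The part of adipocyte and enterocyte markers in the values of Mogat1 and Mogat2 was not tested.

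By their median, macrophage, lymphocyte and stellate cell and fibroblast markers were lower in KKAy at both ages, as Lpin1 was. Of 10 macrophage markers, 9 were lower in KKAy at 4 weeks and 6 at 11 weeks, where 9% and 11.5% of all genes were lower, and their summed levels were 185 to 233 in C57BL/6J and 89.4 to 114 in KKAy at 4 weeks, and 91.9 to 109 against 68.95 to 91.5 at 11 weeks. Of 10 lymphocyte markers, 5 and 3 were lower. Of 8 stellate cell and fibroblast markers, 2 were lower at 4 weeks, 5 were lower and 1 higher at 11 weeks, and 7 were lower at 11 than at 4 weeks in KKAy, where 10.7% of all genes were lower with age. Their summed level was 24.3 to 30.6 in KKAy at 11 weeks and 44.6 to 66.5 in the other groups. Summed endothelial and erythroid markers went the other way. Endothelial sums were 51.17 to 52.95 in KKAy and 37.15 to 37.23 in C57BL/6J at 4 weeks. At 11 weeks they were 38.24 to 38.68 against 30.66 to 31.63. Single endothelial markers were mixed, with 1 of 6 called higher at each age, 1 lower at 4 weeks and 2 at 11 weeks. Erythroid sums were 162.8 to 182 against 99.88 to 113.2 at 4 weeks, and 93.39 to 105.5 against 56.6 to 60.77 at 11 weeks. The part of all these markers in the values of Lpin1 was not tested.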

How the data were processed

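Per the file headers and the submitters' processing notes, the authors scanned 1-colour arrays and extracted spot intensity with Agilent Feature Extraction 9.5.1.1, which subtracts background and removes spatial trends. The deposited value table holds log2 values that equal the log2 processed signal less 1 constant per array (within 0.001 for at least 99.97% of probes), with column medians from -3.96 to -3.67 and the 75th percentile near 0. It was an alternative source. No column lacked a sample (0 columns).

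Control spots and 59 to 89 outlier spots per array were left out and repeated spots were averaged. Log2 processed signal was taken relative to the 75th percentile of each array. A probe was kept where both arrays of any 1 group read it well above background (25320 probes), and the brightest kept probe stood for a gene (17050 genes, of which 14420 have a symbol in the GRCm38.p6 gene table). No spot was saturated (0 on each array). Group means of the 8 arrays were fitted in limma 3.58.1 (R 4.3.3, lmFit and eBayes, 4 residual and 1.926 prior degrees of freedom) with contrasts for strain at each age, age in each strain and their interaction. Benjamini-Hochberg adjustment was used, with a threshold of 0.05. The number of arrays limits the precision. The procedure was tested on simulated data with noise drawn independently for each array. Same-numbered arrays here deviated together, so that test does not cover the p-values under such shared deviation.

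The 9 genes, the related lists, the markers, the tests and the alternatives were chosen with earlier results of these data known. Named outside the 9 genes were, per list, the 2 genes with the smallest adjusted p in each strain comparison and in the interaction among those called, and the 3 genes nearest in pattern to the 3 members of widest range. Alternatives were background correction (normexp, offset 50), quantile and spike-in scaling, a percentile over detected probes, probe filters, the probes' mean or other probes, the value table, the replicate block, fits of only the arrays compared, and each array left out. Tables and figures were made in Python 3.11.15 with pandas 2.3.3, numpy 2.4.6 and matplotlib 3.10.9.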

Additional observations from a re-analysis of the deposited data

Results flagged for a closer look

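The strain difference changed with age, by the interaction term of the limma fit, in 1 of the 9 genes and in 12 of the 92 genes tested in the 5 related lists, where 3.81% of all genes had such a call. Of those 12, 10 are given here; 9 were named for their small adjusted p, here or between the strains, and Cidea for its size. The other two are Plin1 and Usf2. Each value is the strain difference at 11 weeks less that at 4 weeks on the log2 scale, with Benjamini-Hochberg adjusted p.

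Lpin1 had an interaction of -1.99 (adjusted p = 0.00375): it was lower in KKAy at both ages and more so at 11 weeks. Lpin3, called between the strains at 11 weeks and not at 4, had -0.92 (adjusted p = 0.0316). Among droplet genes, Cidec had -4.16 (adjusted p = 0.00342), Pnpla2 -1.42 (adjusted p = 0.00682), Fitm1 1.92 (adjusted p = 0.0061) and Cidea 3.25 (adjusted p = 0.0261). For uptake of fatty acid, Cd36 had 1.70 (adjusted p = 0.00444) and Slc27a1 -0.89 (adjusted p = 0.0434). The other probe of Slc27a1 gave -1.72 (adjusted p = 0.025 over all probes).

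Of the regulators, Nr0b2 had 1.97 (adjusted p = 0.00787), Mlxipl, which encodes the carbohydrate response element binding protein, 0.85 (adjusted p = 0.0261) and Srebf1 0.88 (adjusted p = 0.0372). The strain differences of Fitm1 and Nr0b2 were called in opposite directions at the 2 ages. Those of Mlxipl, -0.41 (adjusted p = 0.031) and 0.44 (adjusted p = 0.0199), were small: the 4-week call was lost in all 8 fits that left out an array (adjusted p 0.0535 to 0.155) and the 11-week call in 4 of them, spike-in scaling gave -0.10 at 4 weeks (adjusted p = 0.682), and its other probe gave -0.28 there (adjusted p = 0.14 over all probes).

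The calls of Lpin1 and Cidec held in all 8 fits that left out an array. Those of Fitm1, Nr0b2 and Pnpla2 were lost without either C57BL/6J array of 11 weeks (adjusted p 0.0548 to 0.0632), and that of Cd36 without replicate 1 of them (adjusted p = 0.0504). Those of Slc27a1, Lpin3, Mlxipl and Srebf1 were lost in all 8 (adjusted p 0.0659 to 0.206), and that of Cidea in 7 of 8 (adjusted p 0.0511 to 0.129), all but the one without KKAy replicate 2 at 4 weeks. In all of these values age goes with slide.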

How the results depend on the processing

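Lpin1 was called in the same direction in both strain comparisons and in KKAy with age under all 21 alternatives, and in the interaction under all 20; its age change in C57BL/6J was called under 16 of 21. Mogat1 was called at 11 weeks under all 20 alternatives and at 4 weeks under 18 of 20. The number of the 9 genes called at 4 weeks, 2, became 4 with quantile normalization and with the percentile over detected probes (Lpin2 and Mogat2 joined) and 1 to 2 with an array left out. At 11 weeks the number, 3, became 5 with the percentile over detected probes, and 4 with quantile normalization and with the mean of a gene's probes. It became 2, without Gpam, with no filter on dim probes and when only the arrays compared were fitted. With spike-in scaling it stayed 3, with Mogat2 called and Gpam not (-0.54, limma adjusted p = 0.142). Gpam also lost its call in most fits that left out an array. With age in C57BL/6J the number, 1, became 0 with no filter on dim probes, where 2 genes had an unadjusted limma p under 0.05, and 0 to 1 with an array left out (0 without any 1 C57BL/6J array, where 1 or 2 genes had such a p). With age in KKAy the number, 3, became 1 when only the arrays compared were fitted and 1 to 3 with an array left out. In the interaction it became 2 with the mean of a gene's probes (Mogat1 joined).

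Lpin2 reversed with the probe: the probe of brightness rank 4 gave 0.64 and 0.74 for the strain difference at 4 and 11 weeks and -0.54 for age in KKAy, the probe of rank 2 gave -1.51 for age in KKAy and -1.40 for the interaction, and the mean of its probes gave -0.65 for age in KKAy. Tmem41b came to -0.035 at 4 weeks with the mean of its probes.

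The replicate number as a block brought the number called to 6 and 8 for strain at 4 and 11 weeks, 6 and 8 for age in C57BL/6J and KKAy, and 5 for the interaction, but with it 43.8%, 54.9%, 33.8%, 53.4% and 31% of all genes were called. With the block, the strain differences of Mttp (limma adjusted p = 0.00102 and 0.0135) and Mogat2 (0.000417 and 0.000389) were called at both ages. So were those of Agpat2 (0.00674 and 0.00741) and, on its brightest probe, Lpin2 (0.00052 and 0.00069). That of Dgat1 was called at 11 weeks (0.000917). Of the 19 acylation genes 11 and 10 were called, and of the 17 lipoprotein genes 8 and 8. Same-numbered arrays deviated together (correlation 0.53 to 0.676 over genes for each of the 6 pairs of groups), a hint from the data. In the main fit this shared deviation is part of the spread behind each SE. Replicate 1 was at slide positions 1 and 3 and replicate 2 at 2 and 4, and replicate 1 was the brighter array of each group. The labels do not say what the numbers stand for. Replicate 1 lay on the same side of replicate 2 in all 4 groups for 8 of the 9 genes, all but Lpin1, and for 71% of 17038 genes.

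Spike-in scaling moved the median of all genes to 0.325 at 4 weeks, -0.2 for age in KKAy and -0.202 for the interaction, and the share of calls above 0 from 41.6% to 73.9% at 4 weeks, from 46.4% to 58.3% at 11 weeks, from 42.4% to 19.1% for age in KKAy and from 54% to 33.8% for the interaction. Outside the block, the share of all genes called ran from 5.45% to 18% at 4 weeks, 7.7% to 24.3% at 11 weeks, 2.54% to 9.73% and 4.35% to 20.8% for age in C57BL/6J and KKAy, and 0.364% to 4.99% for the interaction. The cause of these shifts was not tested.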
